A study of Mus musculus with 6 samples.

Results

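The genes described here are the ligands and receptors of axon guidance: Eph receptors and ephrins, semaphorins with their plexin and neuropilin receptors, Slits with Robo receptors, and netrins with Unc5 receptors. They were chosen by gene symbol among probe sets with a single annotated gene, and a gene with several probe sets is represented by the brightest. This gave 69 of the 19938 genes measured, divided into 6 families: 13 Eph receptors, 8 ephrins, 20 semaphorins, 11 plexins and neuropilins, 7 Slits and Robos, and 10 genes matching the netrin and Unc5 names. Of the last family, Unc50 and Unc5cl share the Unc5 spelling but are not netrin receptors: Unc50 encodes a membrane protein of the Golgi and Unc5cl a death-domain protein named for its likeness to Unc5c. Ephb2 was not analysed here.

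Total RNA of mouse induced pluripotent stem cells (iPSCs, fibroblasts reprogrammed to pluripotency) was hybridised to 6 mouse gene arrays. The 3 primed cultures were kept in medium conditioned by embryonic fibroblasts with basic FGF at 8 ng/ml, on feeder cells or Matrigel. The 3 naive cultures were kept in serum medium (15% fetal bovine serum) with leukaemia inhibitory factor (LIF) at 1000 U/ml. The titles give adult dermal fibroblasts as the origin of the primed lines and embryonic fibroblasts as that of the naive lines, while the source label gives embryonic fibroblasts for all. Culture state and origin of the line may thus have changed together and cannot be told apart. Strain, sex and the number of lines are not stated, and the labels say biological replicate without naming what was repeated, so the p-values cover only the spread among these arrays, which may be technical.

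Axon guidance molecules steer growing nerve fibres by attraction or repulsion at the growth cone. Ephrins are membrane-bound ligands that signal through Eph receptor tyrosine kinases on the touching cell. Semaphorins act through plexins, with neuropilins as co-receptors for most secreted members, Slits act through Robo receptors, and netrins act through Dcc, neogenin and Unc5 receptors. The same molecules work outside the nervous system, in cell sorting and boundary formation in the embryo and in blood vessel growth.

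Values are log2 signals made with RMA (robust multi-array average), and each difference is primed minus naive on that scale. A gene passed the test at a limma adjusted p under 0.05 over all 19938 genes. Background was set on each array at the 95th percentile of its signals for 1194 odorant receptor genes (olfactory and vomeronasal), which came to 6.96 to 7.02, and a group was called in background where its 3 arrays were all below. Signals of different probe sets are not compared with each other, apart from these uses. They served to choose the brightest probe set of a gene and the brightest genes of a family. Each gene was set against the background cutoff, and signals were averaged or summed over lists of marker genes. Replicate arrays correlated across genes at 0.998 to 0.999, against 0.980 between groups, and the number of arrays limits the precision.

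Marker lists were read for the labels and for other cell types. Their counts stand beside 21.8% higher and 22.7% lower of all 19938 genes, and the lists were not tested as sets. Of 12 pluripotency genes 2 were higher and 7 lower in primed cells, and all but Zfp42 were above background on some array. Against common usage, Esrrb (self-renewal in naive cells) averaged 11.24 in primed and 8.25 in naive cells, while Fgf5 (post-implantation epiblast) averaged 8.90 in primed and 10.61 in naive cells. Otx2, also of the post-implantation epiblast, averaged 11.80 in primed and 10.87 in naive cells, on the side its usual reading gives, and Dppa4 (-1.74), Pou5f1 (-1.06), Tdgf1 (-0.80) and Nanog (-0.61) were lower in primed cells. The names primed and naive are those of the labels throughout. Of 15 neural markers 11 were higher and 1 lower in primed cells, and their mean log2 signal was 9.03 to 9.09 on primed and 8.52 to 8.57 on naive arrays. Their summed linear signals overlapped, at 14264 to 15119 on primed and 14201 to 14569 on naive arrays. Fibroblast markers, which feeder cells would carry, divided into 3 higher, 10 lower and 7 not passing of 20, with Lum, Postn, Prrx1 and S100a4 in background in both groups. Their summed signals were 22018 to 23336 on primed and 25776 to 27166 on naive arrays. The list did not move as 1: its largest difference was the rise of Dcn (2.89), and its largest falls were those of Acta2 (-1.23) and Tagln (-1.09). Of 12 endothelial markers 4 were lower and 0 higher in primed cells (summed signals of 2397 to 2461 on primed and 3665 to 3756 on naive arrays), with Kdr, Erg, Emcn and Sox17 in background in both groups. In such bulk cultures fewer cells of a type and less RNA per cell cannot be told apart, and the part of these lists in the results below was not tested.

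Across the 69 guidance genes, 22 were higher in primed cells, 13 were lower and 34 did not pass. These are 31.9% and 18.8% of the members, beside 21.8% and 22.7% of all genes tested. With every array shifted to the same median the counts were 21 and 16, and the counts over all genes became 3439 higher and 6325 lower, against 4347 and 4529 as deposited. The groups did not overlap for 45 of the members, or 65.2%, beside 52.9% of all genes. Most differences were modest: 4 members passed with at least a 2-fold difference, or 5.80% of them beside 3.55% of all genes. The median difference was 0.07 over the members and 0.00 over all genes, and the median size of a difference was 0.21 over the members and 0.14 over all genes. Members that did not pass had differences from -0.17 to 0.16, and their 95% confidence intervals reached from -0.35 to 0.32. Ligands divided into 13 higher, 5 lower and 17 not passing of 35, and receptors into 9, 7 and 16 of 32. In both groups 7 members lay in background (Epha3, Epha5, Epha6, Sema3a, Slit1, Unc5c and Unc5cl). Of these 0 passed in limma, also at an unadjusted p under 0.05, and at background signal a missed threshold does not show equal levels. Over all 19938 genes, 5354 lay in background in both groups, and 616 of these passed. Genes in background are thus a larger part of all genes than of the members. The shares and medians set beside all genes, here and for the partner lists below, were not adjusted for this.

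**Figure D1:**
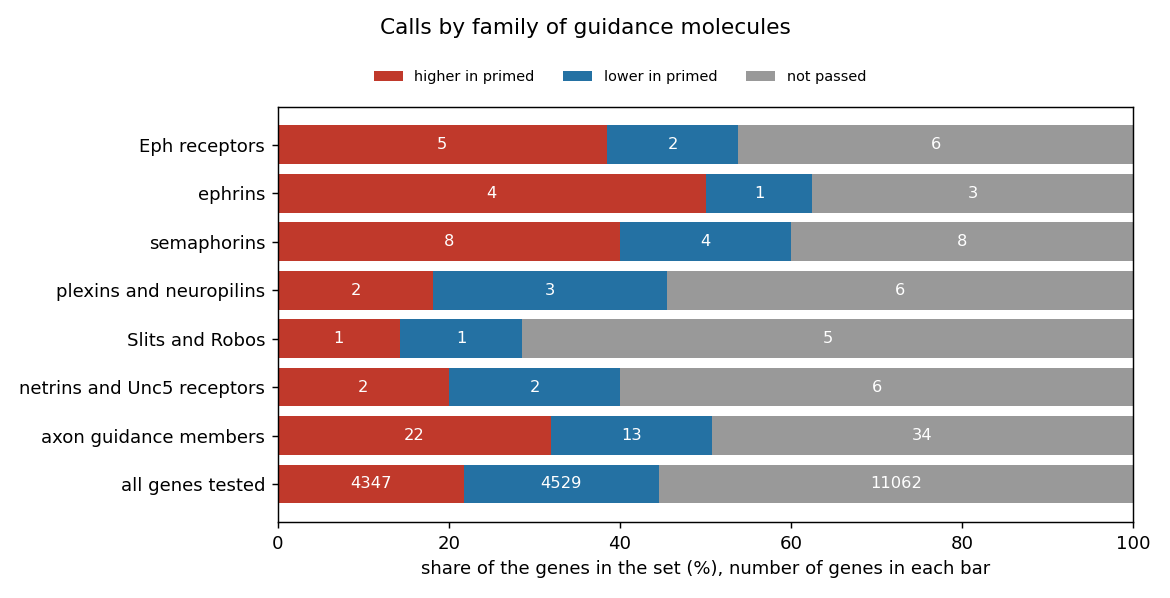
Share of genes in each family that were higher in primed cells (left segment), lower in primed cells (middle) or did not pass (right), with the number of genes in each segment and all 19938 genes tested at the bottom. Semaphorins gave 8 higher and 4 lower of 20, Eph receptors 5 and 2 of 13, and ephrins 4 and 1 of 8 (4 and 3 with equal array medians). Plexins with neuropilins gave 2 and 3 of 11. All genes gave 21.8% higher and 22.7% lower as deposited (3439 and 6325 of 19938 genes with equal array medians).

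Counts by family and class, here and below, stand beside 21.8% higher and 22.7% lower of all genes. The families and classes are small, and they were not tested as sets. The plot of all differences with their intervals shows that each family held members on both sides of 0. The outermost points are Nrp2, Unc5b and Sema3e on the naive side and Sema6c, Robo1, Efna5 and Plxna2 on the primed side.

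**Figure D2:**
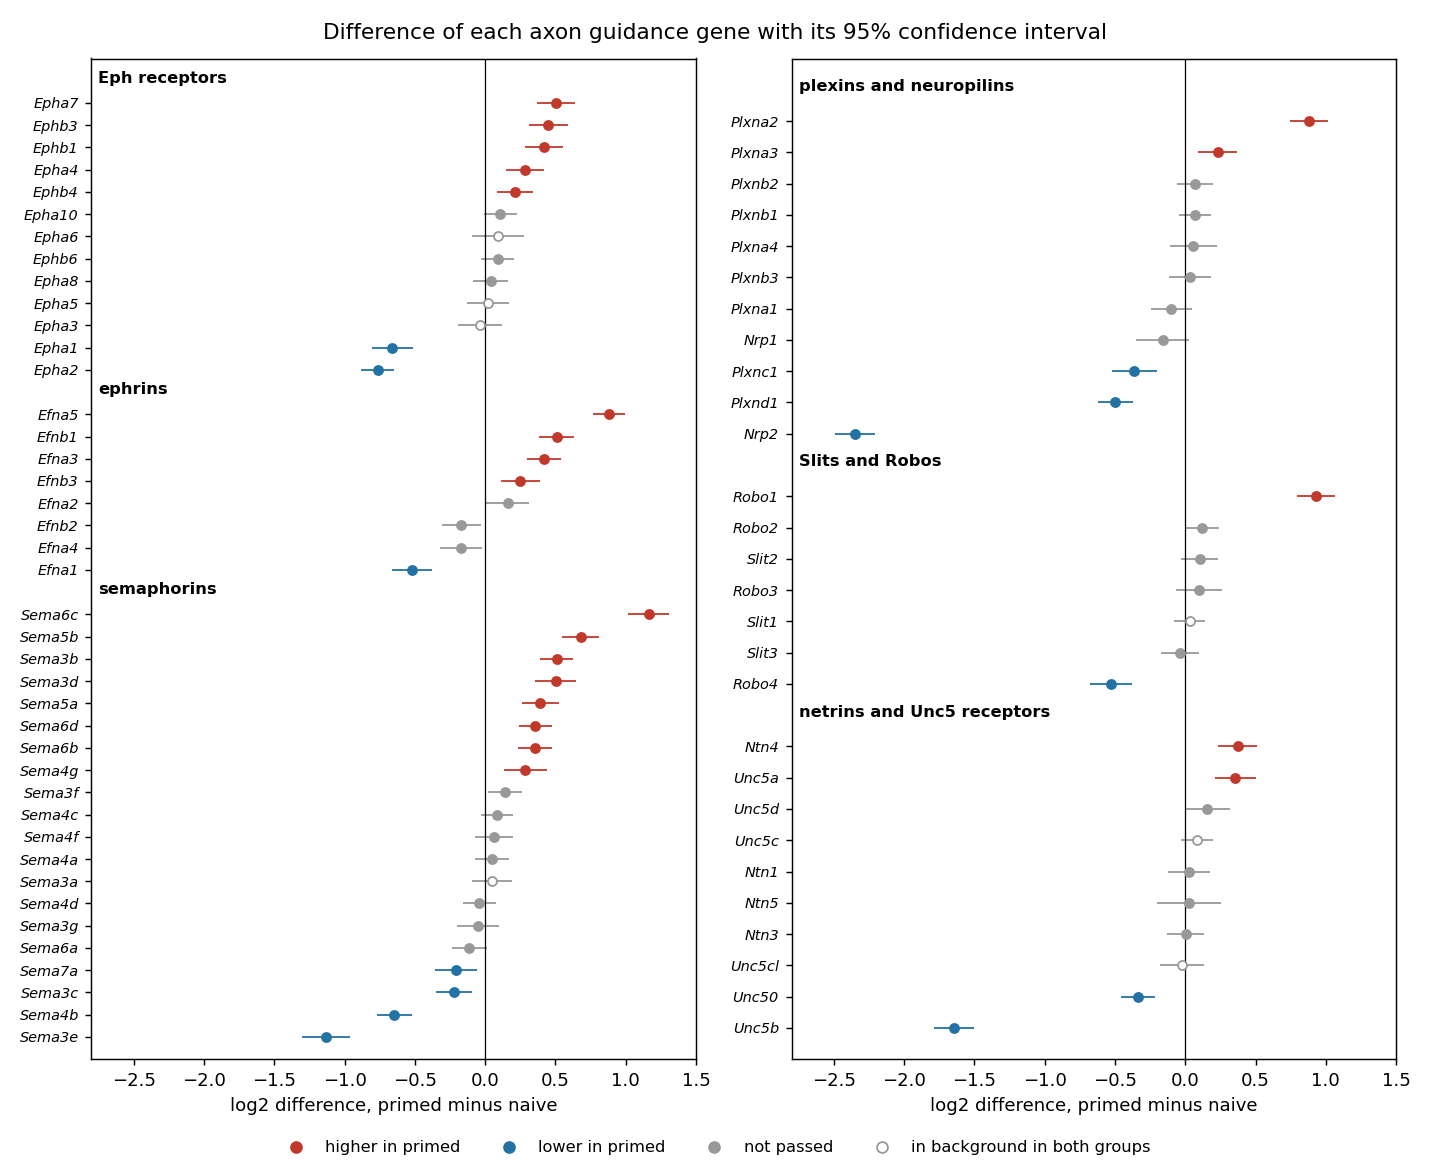
Log2 difference, primed minus naive, of each of the 69 genes by family. Points are differences, bars their 95% confidence intervals from limma (3 arrays per group), colours the call and open points genes in background in both groups; Nrp2 at -2.35 and Sema6c at 1.16 mark the ends.

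The promoters of the 2 genes furthest toward naive cells (Nrp2 and Unc5b) and the 2 furthest toward primed cells (Sema6c and Robo1) are shown to let the sequence at the ends of the range be compared. Each runs 5′ to 3′ on the gene's strand over 250 bases before and 50 after the start of the gene, from RefSeq on GRCm38.p6. Sema6c has 2 windows in that table, of which the upstream is given. Capitals mark matches to the motifs searched.
Nrp2 (chr1:62703067-62703366, plus strand): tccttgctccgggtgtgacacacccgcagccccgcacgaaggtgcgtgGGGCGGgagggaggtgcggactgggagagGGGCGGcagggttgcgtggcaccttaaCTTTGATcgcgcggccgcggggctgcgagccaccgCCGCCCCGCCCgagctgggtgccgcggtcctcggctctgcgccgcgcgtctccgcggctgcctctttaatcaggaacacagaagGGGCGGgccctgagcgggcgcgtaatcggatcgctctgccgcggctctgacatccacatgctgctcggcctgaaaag
Unc5b (chr10:60831532-60831831, minus strand): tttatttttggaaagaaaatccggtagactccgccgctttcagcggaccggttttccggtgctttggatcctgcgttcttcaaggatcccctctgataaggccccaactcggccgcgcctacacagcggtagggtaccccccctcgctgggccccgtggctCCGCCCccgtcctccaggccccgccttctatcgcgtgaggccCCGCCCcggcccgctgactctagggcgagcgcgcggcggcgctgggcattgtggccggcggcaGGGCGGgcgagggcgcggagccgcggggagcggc
Sema6c (chr3:95160170-95160469, plus strand): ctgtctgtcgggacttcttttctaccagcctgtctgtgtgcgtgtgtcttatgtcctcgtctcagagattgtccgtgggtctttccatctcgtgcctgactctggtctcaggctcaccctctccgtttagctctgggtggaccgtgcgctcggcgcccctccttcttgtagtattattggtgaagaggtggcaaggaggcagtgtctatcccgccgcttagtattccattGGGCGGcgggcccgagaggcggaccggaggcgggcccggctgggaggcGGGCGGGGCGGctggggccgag
Robo1 (chr16:72662899-72663198, plus strand): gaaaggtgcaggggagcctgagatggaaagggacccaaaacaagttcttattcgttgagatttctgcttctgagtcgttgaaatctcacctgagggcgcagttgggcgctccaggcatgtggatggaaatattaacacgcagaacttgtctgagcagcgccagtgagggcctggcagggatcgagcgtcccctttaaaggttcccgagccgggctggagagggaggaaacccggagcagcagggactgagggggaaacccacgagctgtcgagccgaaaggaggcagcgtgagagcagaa
The motifs, read on both strands with overlapping matches counted, were the octamer bound by Oct4 (ATGCAAAT), an ESRRB site (TCAAGGTCA), a STAT site (TTCCNGGAA), a TCF/LEF site (ATCAAAG) and the GC box (GGGCGG). Nrp2 held 5 GC boxes and a TCF/LEF match, Unc5b held 3 GC boxes, Sema6c held 3 and Robo1 held 0. Windows were found for 60 of the 69 members, 76 in all, and 72.4% of these held a GC box, beside 35.7% of all 32851 windows and 46.2% of the 21262 windows of protein-coding genes. Of the members' windows, 0 held the octamer (1.74% of all windows), 0 the ESRRB site (0.423%), 0 the STAT site (1.15%) and 1 the TCF/LEF site (3.73%). The median number of CpG dinucleotides was 18.5 per member window, against 13 for protein-coding genes, and it was 23 for members higher and 23 for members lower in primed cells, and 15 for members that did not pass. These are counts of letters in the windows. No binding was measured.

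Of the 8 ephrins, the ligands of the contact-dependent pathway, 4 were higher in primed cells, 1 was lower and 3 did not pass. With each array shifted to the same median 4 were higher and 3 lower, beside 3439 higher and 6325 lower of all 19938 genes at that setting. Efna5, a ligand tethered by a lipid anchor and known for mapping retinal axons onto their target, read 11.15, 11.09 and 11.04 on primed arrays and 10.20, 10.25 and 10.20 on naive arrays. All primed arrays were above all naive arrays, and the difference was 0.88 (SE 0.05, 1.84-fold, limma adjusted p = 1.4e-07). Efnb1, a transmembrane ligand encoded on the X chromosome, read 9.75, 9.67 and 9.60 on primed and 9.12, 9.23 and 9.15 on naive arrays. The groups again did not overlap (0.51, SE 0.06, adjusted p = 2.3e-05). Efna3, another anchored ligand, averaged 10.86 ± 0.04 in primed and 10.43 ± 0.07 in naive cells (SD, n = 3 each; 0.42, adjusted p = 6.6e-05).

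Efna1, an anchored ligand for which Epha2 is a main receptor, went the other way. It read 8.92, 9.07 and 8.85 on primed arrays, all below the 9.45, 9.41 and 9.53 of naive arrays (-0.52, SE 0.07, adjusted p = 5.1e-05). In the order of protein-coding genes in GRCm38.p6, Efna1, Efna3 and Efna4 follow each other on chromosome 3 with 0 genes between. Of these neighbours Efna1 was lower in primed cells, Efna3 was higher, and Efna4 did not pass (-0.17, adjusted p = 0.059).

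Of the 13 Eph receptors, 5 were higher in primed cells, 2 were lower and 6 did not pass, of which 3 were in background in both groups. The EphA class, which binds mainly the anchored ephrins, gave 2 higher and 2 lower of 9. The EphB class, which binds mainly the transmembrane ephrins, gave 3 higher and 0 lower of 4, beside 21.8% and 22.7% of all genes. Epha2, a receptor found in many epithelia and in the early embryo, read 10.44, 10.35 and 10.34 on primed arrays and 11.10, 11.18 and 11.15 on naive arrays. Its groups were wide apart relative to their spread (-0.76, SE 0.05, 1.70-fold lower, adjusted p = 4.8e-07). Epha1, the founding member of the family, read 9.73, 9.53 and 9.49 in primed and 10.27, 10.21 and 10.26 in naive cells (-0.66, SE 0.07, adjusted p = 8.3e-06). Epha2, Epha1 and the ligand Efna1 were thus lower in primed cells, while the ligand Efna5 and the receptor Epha7, listed as 1 of the 2 brightest of its family, were higher. These genes were set together after their values were seen. Of the other anchored ephrins, Efna3 was higher, and Efna2 and Efna4 did not pass. The receptors Epha3, Epha5 and Epha6 were in background in both groups. Epha7, which binds Efna5 in the developing brain, averaged 10.64 ± 0.01 in primed and 10.14 ± 0.11 in naive cells (SD, n = 3 each; 0.50, adjusted p = 3.9e-05). The other rises were those of Ephb3 (0.45), Ephb1 (0.42), Epha4 (0.28) and Ephb4 (0.21), and the Ephb1 rise comes from 1 of 2 probe sets, since the other was in background on all 6 arrays.

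The 20 semaphorins gave 8 rises, 4 falls and 8 genes that did not pass. Class 5, which is anchored in the membrane and bears thrombospondin repeats, gave 2 higher and 0 lower of 2. Class 6, also anchored in the membrane and acting through plexin A receptors, gave 3 higher and 0 lower of 4. Sema6c, a transmembrane semaphorin, read 10.21, 10.13 and 9.98 on primed arrays, against 8.97, 8.89 and 8.96 on naive arrays. The lowest primed array lay above the highest naive array by more than the range within either group, and the difference was 1.16 (SE 0.07, 2.24-fold, adjusted p = 8.4e-08). Sema5b, which restrains neurites in the mouse retina, read 8.48, 8.53 and 8.40 in primed and 7.89, 7.74 and 7.75 in naive cells (0.68, SE 0.06, adjusted p = 3.4e-06). Sema5a, Sema6b and Sema6d rose by 0.39, 0.35 and 0.36. Sema6a, listed as 1 of the 2 brightest of its family, averaged 11.92 ± 0.04 in primed and 12.03 ± 0.08 in naive cells (SD, n = 3 each). It did not pass (-0.11, 95% confidence interval -0.24 to 0.01), but did with equal array medians (-0.18, adjusted p = 0.025).

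Secreted semaphorins (class 3), the usual ligands of neuropilin complexes, gave 2 higher and 2 lower of 7. Sema3e is the exception that binds Plxnd1 without a neuropilin and is known from vessel patterning. It read 9.72, 9.58 and 9.50 on primed arrays and 10.63, 10.87 and 10.69 on naive arrays, with no overlap (-1.13, SE 0.08, 2.19-fold lower, adjusted p = 3.6e-07). Sema3b, a ligand of neuropilins, read 8.63, 8.56 and 8.62 in primed and 8.04, 8.14 and 8.11 in naive cells (0.51, SE 0.05, adjusted p = 1.1e-05). Sema3d, another secreted cue, read 7.23, 7.06 and 7.11 on primed arrays and 6.59, 6.55 and 6.74 on naive arrays (0.50, adjusted p = 6.9e-05). Naive cells were in background for it, so its level was at least 1.09-fold higher in primed cells when the background cutoff takes the place of the naive signal. Sema3d and Sema3a are neighbours on chromosome 5, and 3 genes lie between Sema3a and Sema3e, with Sema3a in background in both groups.

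Class 4 semaphorins, transmembrane proteins that mostly act through plexin B receptors, gave 1 higher and 1 lower of 6. Sema4b read 9.69, 9.57 and 9.67 on primed arrays, all below the 10.24, 10.29 and 10.35 of naive arrays (-0.65, SE 0.06, 1.57-fold lower, adjusted p = 2.7e-06). Sema4g rose by 0.29 (adjusted p = 0.0051). The other falls in the family were small, those of Sema3c (-0.22, adjusted p = 0.0077) and of the lipid-anchored Sema7a (-0.21, adjusted p = 0.029).

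Among the receptors of semaphorins, 2 were higher and 3 lower in primed cells of 11, with 6 not passing. Nrp2, a co-receptor for secreted semaphorins and for vascular growth factors, showed the largest difference of the 69 genes. It read 7.77, 7.80 and 7.79 on primed arrays and 10.02, 10.26 and 10.12 on naive arrays. The primed values were nearly equal and above background, and the difference was -2.35 (SE 0.06, 5.09-fold lower, adjusted p = 3.4e-10). Leaving out each array in turn gave -2.41 to -2.28. Nrp1, its relative, was in background in primed cells and near it in naive cells, with overlapping groups (6.81 ± 0.19 in primed and 6.97 ± 0.06 in naive cells, SD, n = 3 each) and did not pass (-0.16, adjusted p = 0.16).

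Plxnd1, the receptor of Sema3e, was lower in primed cells together with its ligand (7.56 ± 0.04 in primed and 8.05 ± 0.08 in naive cells, SD, n = 3 each; -0.50, adjusted p = 2.5e-05). Plxnc1, the receptor of Sema7a, differed by -0.36 (adjusted p = 0.0015). These 2 plexins were picked for the ligands they bind after their values were seen. Nrp2, Plxnd1 and Sema3e are also used by blood vessels, and the endothelial markers Flt1 (-1.90), Tek (-1.42) and Esam (-0.43) were lower in primed cells as well, as was Pecam1, at least 2.04-fold, with primed cells in background. Of the other endothelial markers, Egfl7 (0.07), Tie1 (0.04), Cldn5 (0.02) and Cdh5 (-0.16) did not pass, and Kdr, Erg, Emcn and Sox17 were in background in both groups. Their part in these differences was not tested.

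Plxna2, which transmits the signals of class 6 and, with neuropilins, class 3 semaphorins, moved the other way. It read 8.49, 8.51 and 8.40 on primed arrays, above the 7.53, 7.70 and 7.53 of naive arrays (0.88, SE 0.06, 1.84-fold, adjusted p = 4.9e-07). Plxna3 rose by 0.23 (adjusted p = 0.010). Plxnb2 and Plxna1, listed as the 2 brightest of their family, did not pass. Plxnb2 averaged 11.78 ± 0.07 in primed and 11.71 ± 0.07 in naive cells (SD, n = 3 each), with an interval of the difference from -0.06 to 0.20, and Plxna1 averaged 11.19 ± 0.07 in primed and 11.29 ± 0.11 in naive cells, with an interval from -0.25 to 0.05.

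In the Slit and Robo family 1 gene was higher and 1 lower in primed cells of 7, and 0 of the 3 Slit ligands passed. With quantile normalization 2 were higher. Robo1, the receptor through which Slits repel axons from the midline, read 10.59, 10.46 and 10.46 on primed arrays and 9.49, 9.59 and 9.63 on naive arrays. The groups stood well apart (0.93, SE 0.06, 1.91-fold, adjusted p = 2.8e-07). Robo2, its neighbour on chromosome 16 with 0 genes between, did not pass (0.12, adjusted p = 0.11). Robo4, the Robo of blood vessel endothelium, read 6.90, 6.65 and 6.78 in primed cells, all in background, and 7.35, 7.23 and 7.33 in naive cells (-0.53, SE 0.07, adjusted p = 6.7e-05). Its level in primed cells was at least 1.24-fold lower when the background cutoff takes the place of the primed signal. The Slit ligands lay close to background, Slit3 at 7.41 ± 0.09 in primed and 7.45 ± 0.06 in naive cells (SD, n = 3 each; interval of the difference -0.17 to 0.10).

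Netrins and Unc5 receptors gave 2 higher and 2 lower of 10, or 2 and 1 of 8 without Unc50 and Unc5cl. Unc5b, a netrin receptor of repelled axons and of vessel tips, read 9.51, 9.36 and 9.50 on primed arrays and 11.02, 11.08 and 11.20 on naive arrays. This was the second largest difference among the 69 genes (-1.65, SE 0.06, 3.13-fold lower, adjusted p = 4.9e-09), and it stayed between -1.68 and -1.60 without each array in turn. Unc5a, a receptor of the same class, rose by 0.36 (adjusted p = 0.0010). Among the ligands Ntn4, a netrin of basement membranes, averaged 8.14 ± 0.09 in primed and 7.77 ± 0.07 in naive cells (SD, n = 3 each; 0.37, adjusted p = 0.00047), and Ntn1, the classical attractant, did not pass (0.03, interval -0.12 to 0.17). Unc50 averaged 10.27 ± 0.07 in primed and 10.61 ± 0.03 in naive cells (SD, n = 3 each; -0.34, adjusted p = 0.00034).

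The plot of single arrays shows the 16 genes with the largest differences among members that passed and whose groups did not overlap. The gap between groups was thus part of the choice, and 52.9% of all genes did not overlap either. Of the 16 genes, 8 were lower and 8 higher in primed cells.

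**Figure D3:**
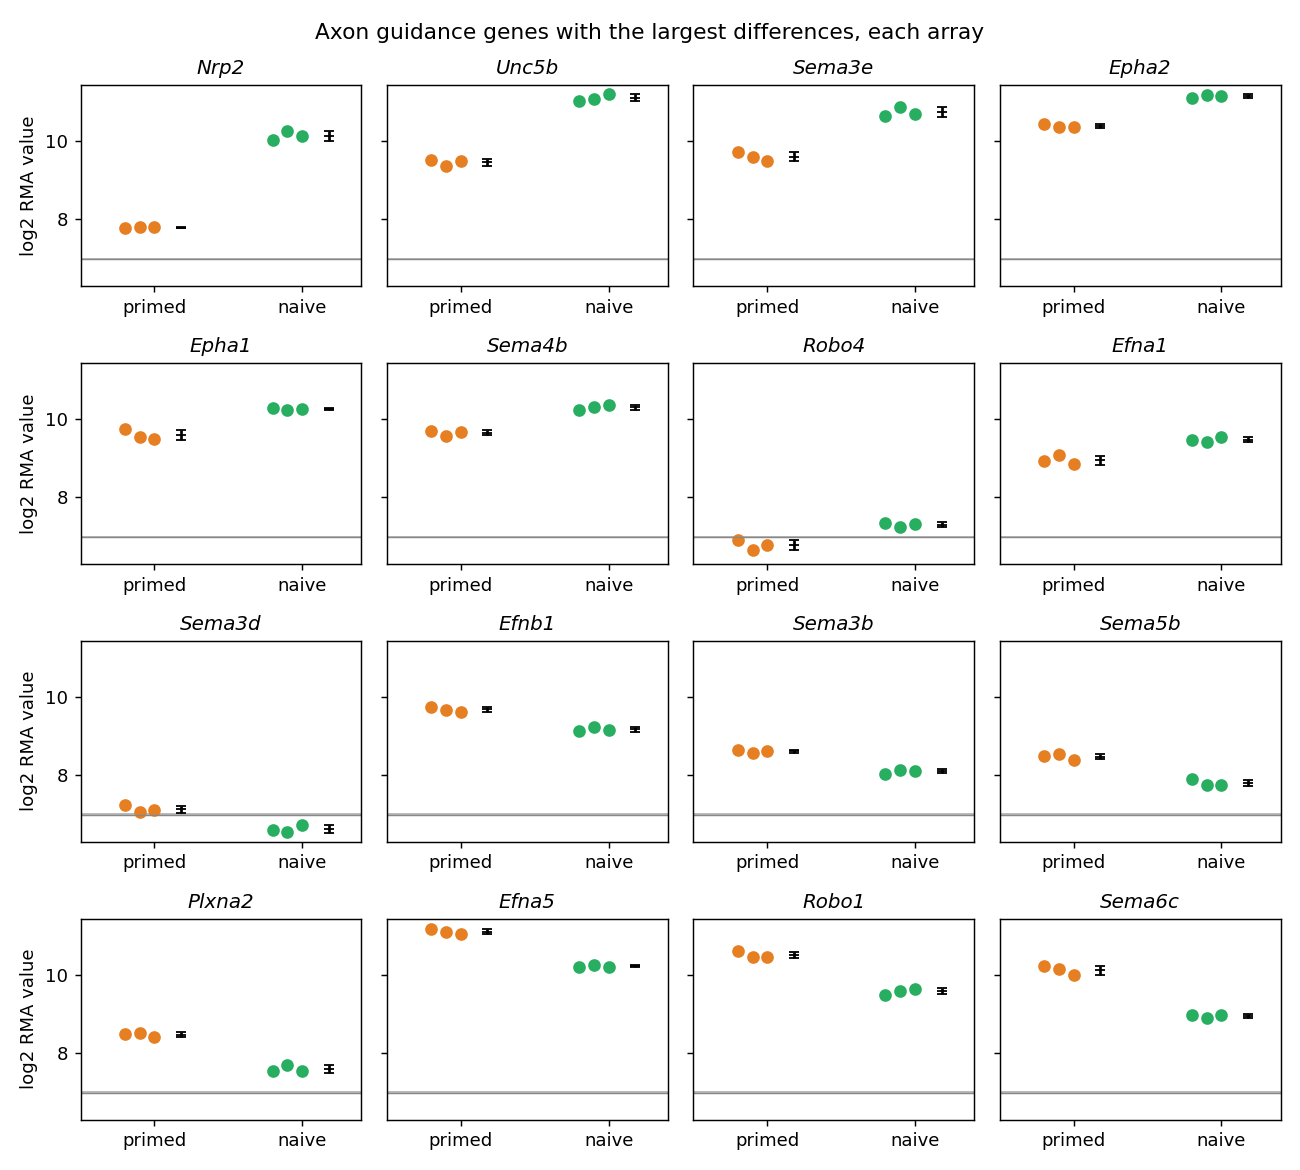
Log2 RMA value on each primed (left) and naive (right) array for the 16 genes with the largest differences that passed and did not overlap, ordered from Nrp2 to Sema6c. Points are arrays, bars beside them mean ± SD (n = 3), and the grey line is the background cutoff, which primed Robo4 and naive Sema3d values lie below.

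Other genes of the same pathways were read from a pair of lists. Of 33 co-receptors, adhesion partners and modulators, 14 were higher and 4 lower in primed cells, with 15 not passing (42.4% and 12.1% beside 21.8% and 22.7% of all genes). With equal array medians the counts were 11 and 10, beside 3439 higher and 6325 lower of all 19938 genes at that setting. As deposited, the median difference of the 33 genes was 0.02 beside 0.00 over all genes. Vegfa, a growth factor of blood vessels that also binds neuropilins, averaged 11.01 ± 0.02 in primed and 9.38 ± 0.13 in naive cells (SD, n = 3 each; 1.64, adjusted p = 5.7e-09). Lrig2, which protects neogenin from shedding, rose by 0.91, Neo1 (neogenin itself) by 0.75, its ligand Rgma by 0.73 and Boc, a Hedgehog receptor of commissural axons, by 0.69. Dcc, the netrin receptor of attracted axons, was looked up after its values were seen. It read 7.26, 7.34 and 7.37 in primed cells and 6.78, 6.77 and 6.85, in background, in naive cells (adjusted p = 9.4e-06), so its level was at least 1.25-fold higher in primed cells.

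Of 64 cytoplasmic partners, 27 were higher and 16 lower in primed cells, with 21 not passing and a median difference of 0.05. These are 42.2% and 25.0%, beside 21.8% and 22.7% of all genes. With equal array medians the counts were 24 and 21, beside 3439 and 6325 of all 19938 genes. All 5 collapsin response mediator proteins on the list, which carry semaphorin signals to microtubules, were higher in primed cells. They were taken as a group after their values were seen. Dpysl3 averaged 9.78 ± 0.04 in primed and 8.19 ± 0.05 in naive cells (SD, n = 3 each; 1.60, adjusted p = 1.7e-09), Dpysl2 rose by 1.11, Crmp1 by 0.83, Dpysl5 by 0.44 and Dpysl4 by 0.25. Chn1, a Rac-inactivating protein that acts downstream of Epha4, rose by 1.05, and Trio, an exchange factor used by netrin receptors, by 0.82. Neural markers were higher in primed cells too, as given above, and their part in these rises was not tested.

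**Figure D4:**
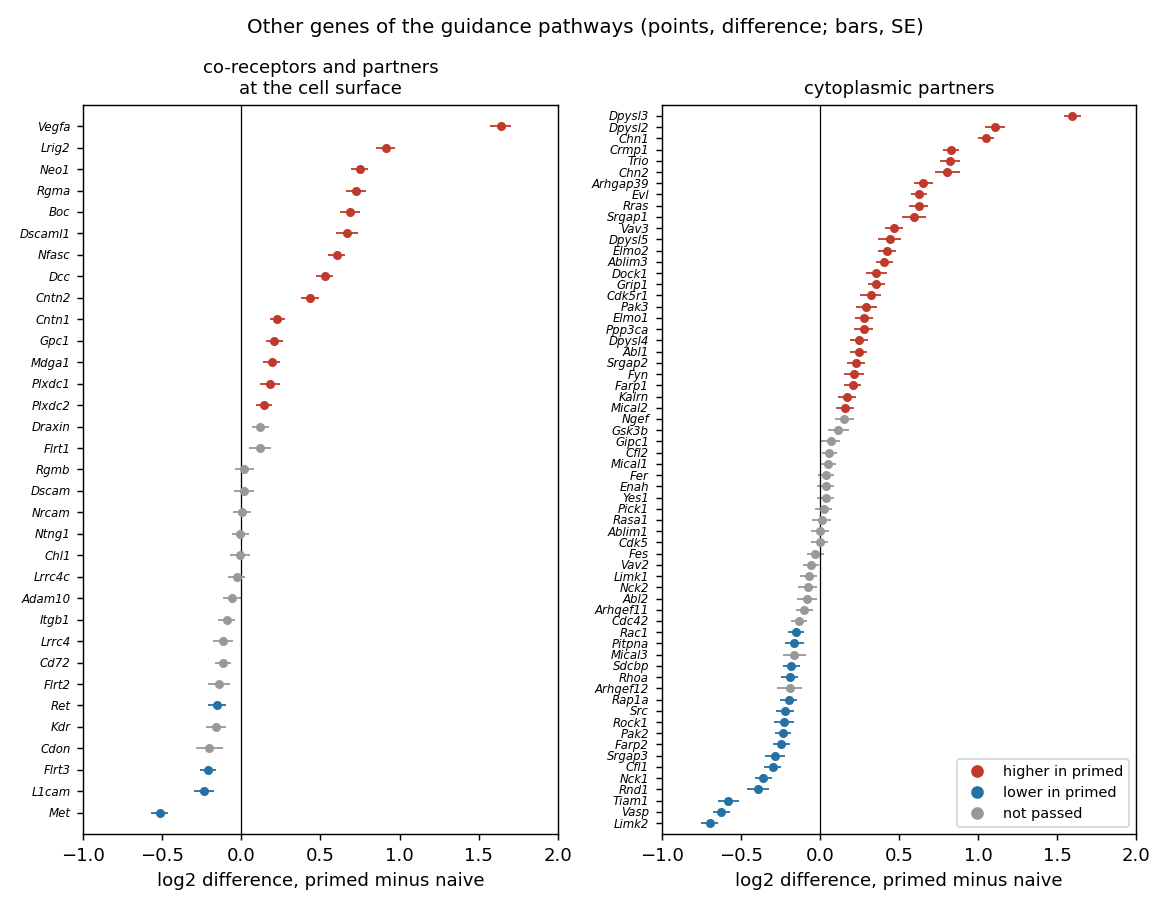
Log2 difference, primed minus naive, of 33 co-receptors, adhesion partners and modulators, among them the growth factor Vegfa (left panel), and 64 cytoplasmic partners (right panel). Points are differences, bars their SE and colours the call; Vegfa (1.64) and Dpysl3 (1.60) lie furthest to the right.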

How the data were processed

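The deposited values are log2 values that the authors produced by RMA; the submitters' processing notes name Partek 6.6. RMA options and a genome build: not given in the sources used here. Of 35556 probe sets, 21789 had 1 gene symbol in GEO's platform annotation, 1621 had several and were not used, and 12146 are not named here. By gene ID, 21698 matched RefSeq (GRCm38.p6), and the 19938 genes keep their brightest probe set.

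Primed was compared with naive in limma 3.58.1 (R 4.3.3; lmFit and eBayes, two-sided, no covariates, values as deposited), and p-values were adjusted by Benjamini-Hochberg across the whole table. The script was tested on simulated data. Named members are the 16 with the largest difference that passed without overlap, the 2 with the largest difference and the 2 brightest of each family, and the 5 largest that passed in each partner list. Members, lists and rules were chosen with earlier results of these data known, and the promoter motifs after the values were seen. As alternatives, arrays were quantile normalized or set to equal medians, genes under the 40th percentile were dropped, probe sets were averaged, weights, an intensity trend or a replicate block were added, the threshold was set to 0.01 and each array was left out.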

Additional observations from a re-analysis of the deposited data

How the results depend on the processing

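For the genes named by the rules above, direction and side of the threshold held under the alternatives that gave a value for them. The exceptions were 3 genes that did not pass as deposited. Robo4, Sema3d and Slit3 had no value with dim genes left out, since that filter removed them. Sema6a passed with equal array medians (-0.18), Plxnb2 changed sign there (-0.0012, adjusted p = 0.99) and Slit3 changed sign without primed replicate 3 (0.0095, adjusted p = 0.93; -0.0815 to 0.0095 without each array in turn). Of the members, 22 to 25 were higher and 12 to 14 lower without each array in turn. Ephrins lower in primed cells numbered 3 in place of 1 with equal medians, with dim genes left out, with an intensity trend and with array weights, and 1 to 2 without each array in turn (2 without naive replicate 1 or naive replicate 2). Where 3 were counted, Efna4 and Efnb2, which did not pass as deposited, were lower beside Efna1. Slits and Robos higher in primed cells numbered 2 with quantile normalization and 1 to 2 without each array (2 without primed replicate 1), and those lower numbered 0 with dim genes left out, a filter that left 44 members to test. Co-receptors lower in primed cells numbered 10 with equal medians, a setting where 6325 of all 19938 genes were lower. Cytoplasmic partners lower numbered 10 at a threshold of 0.01. Netrin and Unc5 genes lower numbered 1 without Unc50 and Unc5cl, an alternative chosen after seeing the data. Same-numbered arrays did not deviate together (correlations of -0.109, 0.002 and -0.021), so no effect shared by number was seen. Deviations from means of 3 arrays may be mostly noise, so this cannot decide whether the samples were paired. With the replicate number as a block, 22 members were higher and 13 lower, as without it. Except where a construction shows it (fewer genes tested, a stricter threshold, fewer members), the cause was not tested. RMA compresses differences of dim genes, so members near background are limited most.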

Other observations

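Genes that act on actin filaments differed in both directions among the cytoplasmic partners. Limk2, a kinase that inactivates cofilin, averaged 10.22 ± 0.07 in primed and 10.92 ± 0.04 in naive cells (SD, n = 3 each; -0.70, limma adjusted p = 1.3e-06). Vasp, which promotes growth of actin filaments, differed by -0.62 (adjusted p = 3.4e-06) and Tiam1, an exchange factor for Rac, by -0.58 (adjusted p = 2.5e-05). Evl, of the same protein family as Vasp, was higher in primed cells (0.63, adjusted p = 1.6e-06), and its relative Enah did not pass (0.04, adjusted p = 0.62). Cfl1 (cofilin) differed by -0.30 (adjusted p = 0.00057), while Cfl2 (0.06) and Limk1 (-0.07) did not pass. These genes were singled out after their values were seen.

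Srgap1, a GTPase-activating protein that binds Robo receptors, rose by 0.60 in primed cells (limma adjusted p = 5.5e-05), and Robo1 rose by 0.93. Srgap2 rose by 0.23 (adjusted p = 0.0071), while Srgap3 differed by -0.28 (adjusted p = 0.0027). Chn2, a relative of Chn1, rose by 0.81 (adjusted p = 6e-06). The Srgap genes and Chn2 were also singled out after their values were seen. The 2 probe sets of Sema6b held identical values on all 6 arrays and are not separate measurements.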
